A study of Mus musculus with 12 samples.

Results

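Transcripts of 7 matrix metalloproteinases, Mmp2, Mmp3, Mmp9, Mmp10, Mmp12, Mmp13 and Mmp14, were followed in marked mouse bone marrow stromal cells. The genes were taken by symbol. They are 7 of 22 Mmp genes and of 21001 genes listed in the libraries, and all 7 passed the expression filter of at least 1 FPKM in at least 3 of 12 libraries. FPKM is a fragment count scaled to transcript length and to the size of the library, so levels can be set beside each other between genes. Mmp2 reached 1 FPKM in 4 libraries (3 of BM and 1 of TUMOR) and Mmp12 in 6 (those of HOMING and BM).

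The cells, called BMSCs in the labels, carried green fluorescent protein (GFP) and came from C57BL/6 mice whose genotype was entered as "wide type". Group NC held GFP-BMSCs in primary culture, and HOMING held GFP-BMSCs recovered from the marrow of mice that had been given them alone, under the skin. BM and TUMOR both came from mice co-injected with GFP-BMSCs and RFP-LLCs, Lewis lung carcinoma cells carrying a red fluorescent protein. BM cells were taken from the marrow of those mice and TUMOR cells from the site of inoculation. All 4 groups are labelled as GFP-marked cells, and NC is the only one that the labels do not place in a host. Ages, the time after injection and the sorting gate are not given in the sources used here. Each group had 3 libraries, and nothing states that these came from separate animals or cultures, so p-values measure the spread between libraries, which may be technical.

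Library totals lay between 43232145 and 46166519 expected counts. Of 12 stromal markers, Col1a1 and Prrx1 were abundant in every group, and the summed level of the list ranged from 418.89 to 603.57 FPKM over all libraries. Thy1, Lum and Nt5e, which are also stromal markers, lay at or below 0.79 FPKM in every library. Markers of leukocytes and red cells were high in HOMING, which does not match a pool of stromal cells alone. Leukocyte markers were also present in BM. Of 5 epithelial markers, Krt8 and Krt19 were high in TUMOR, while Krt18, Cdh1 and Epcam were near 0 in every group.

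Matrix metalloproteinases are zinc-dependent endopeptidases that cut collagens, proteoglycans, glycoproteins and other extracellular proteins. Most are secreted as inactive proenzymes, in which a cysteine of the propeptide covers the zinc, and are activated by other proteases. Tissue inhibitors of metalloproteinases (TIMPs) block the active enzymes. Stromal cells are a main source of the stromelysins, of collagenase 3, of gelatinase A and of the membrane-type enzyme MMP14. Neutrophils store gelatinase B (MMP9), and macrophages make both MMP9 and macrophage elastase (MMP12).

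Stretches of promoter are shown for the members that share the AP-1 motif, because Mmp3, the highest member in BM, is among them, and for Mmp14, which lacks it. They were read from the RefSeq promoter table (build GRCm38.p6), which matched 5 of the 7 members and holds 250 bases before each annotated start. Mmp2 and Mmp9 had no entry. Each stretch is the 110 bases before the start, on the strand of the gene. Capitals mark matches to the AP-1 motif TGANTCA, bound by Fos and Jun dimers, and to the TATA box TATAAA, both searched on both strands.
Mmp3, chr9:7445712-7445821, plus strand: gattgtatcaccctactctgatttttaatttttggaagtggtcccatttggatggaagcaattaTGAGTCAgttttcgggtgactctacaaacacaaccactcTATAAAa
Mmp10, chr9:7502232-7502341, plus strand: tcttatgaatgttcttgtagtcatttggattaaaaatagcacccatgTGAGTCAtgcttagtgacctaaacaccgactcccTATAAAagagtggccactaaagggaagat
Mmp13, chr9:7272404-7272513, plus strand: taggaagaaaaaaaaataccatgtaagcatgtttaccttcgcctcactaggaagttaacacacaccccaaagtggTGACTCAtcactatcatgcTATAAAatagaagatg
Mmp12, downstream start, chr9:7347264-7347373, plus strand: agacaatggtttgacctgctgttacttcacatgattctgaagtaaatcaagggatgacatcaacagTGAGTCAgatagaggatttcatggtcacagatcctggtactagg
Mmp14, chr14:54431488-54431597, plus strand: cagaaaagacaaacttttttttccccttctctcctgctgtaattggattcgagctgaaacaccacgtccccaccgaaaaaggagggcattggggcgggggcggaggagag

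Mmp3, Mmp10 and Mmp13 each held an AP-1 match followed by a TATA match on the strand of the gene. The first base of the AP-1 match lay at position -46 in Mmp3, -63 in Mmp10 and -35 in Mmp13, counted back from the annotated start. The TATA match began at -7, -29 and -16 in the same order. These positions depend on the annotated start. A second annotation placed that of Mmp10 at 7502352, against 7502342 here, and gave the same starts for Mmp3 and Mmp13. The downstream start of Mmp12, that of the transcript with nearly all of its reads, held an AP-1 match at -44 and no TATA match. The window of Mmp14, the highest member in NC, HOMING and TUMOR, held neither motif. Of 32851 promoters of the same length, 6.75% held an AP-1 match and 12.4% a TATA match.

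Further motifs were searched in the same windows, and differences between motifs were not tested. The ETS motif AGGAAG was found at -183 in Mmp3, at -109 and -62 in Mmp13, at -87 before the upstream start of Mmp12 and at -209 in Mmp14, and 29.5% of all promoters held it. The C/EBP motif TTGCNNAA lay at -148 in Mmp3, at -241 in Mmp10 and at -39 before the upstream start of Mmp12, against 9.56% of all promoters. The NF-kB decamer motif was found among the members at -129 before the upstream start of Mmp12 alone, and 45.8% of all promoters held it. A match is a run of letters and was not tested as a binding site.

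**Figure D1:**
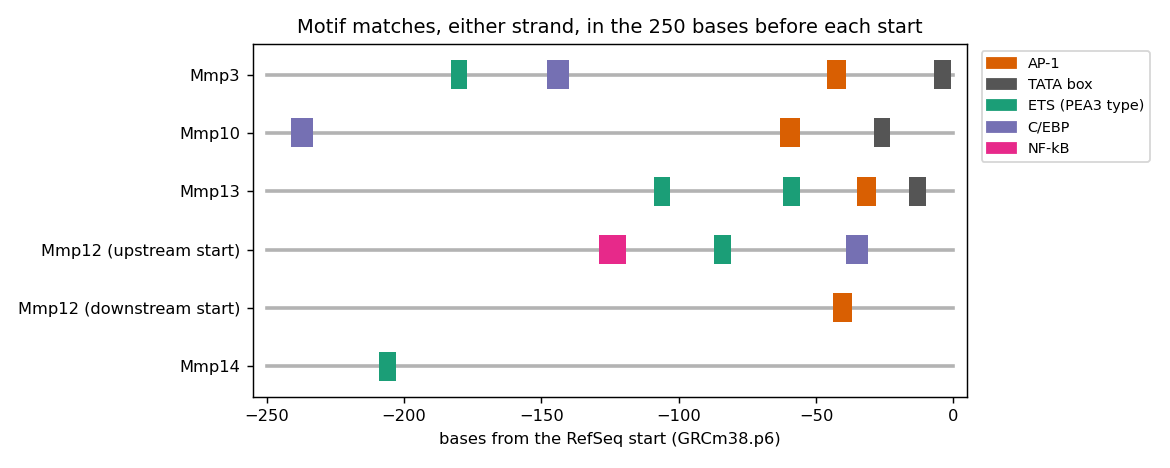
Motif matches on either strand in the 250 bases before each RefSeq start, plotted by distance from the start (x axis, bases) for the 5 members with a promoter entry, with both starts of Mmp12 (y axis). AP-1 and TATA matches lie near the start in Mmp3, Mmp10 and Mmp13, and Mmp14 has neither.

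The AP-1 members are also neighbours. In the RefSeq annotation, chromosome 9 carries a run of Mmp genes in the order Mmp13, Mmp12, Mmp1b, Mmp3, Mmp1a, Mmp10 and Mmp8, and 4 of the 7 members lie in it. Mmp1a and Mmp1b, the mouse interstitial collagenase genes, also held an AP-1 match, at -73 and -93, and a TATA match at -28 and -49. The neutrophil collagenase gene Mmp8 held neither in its window. Mmp9, Mmp2 and Mmp14 lie on chromosomes 2, 8 and 14.

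Mmp3 encodes stromelysin 1, which cuts proteoglycans, fibronectin and laminin and can activate other proenzymes. It was the most abundant member in marrow cells of tumour-bearing mice. Its level in the 3 libraries was 18.55, 16.90 and 21.85 FPKM in NC and 54.05, 52.91 and 66.28 FPKM in HOMING. BM libraries had 313.43, 299.05 and 317.97 FPKM, and TUMOR libraries 25.33, 17.09 and 17.46 FPKM. No BM library overlapped another group, HOMING lay between, and TUMOR overlapped NC. The mean was 310.2 ± 9.88 FPKM (SD, n = 3) in BM against 57.75 ± 7.41 in HOMING.

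Mmp3 therefore differed between the marrow groups by 2.45 ± 0.15 on the log2 scale (SE), 5.48-fold higher in BM (edgeR, adjusted p = 3.94e-08). HOMING exceeded NC by 1.48 ± 0.15 (edgeR, adjusted p = 1.65e-06) and BM exceeded NC by 3.94 ± 0.16, or 15.3-fold (edgeR, adjusted p = 3.49e-09). TUMOR cells of the same co-injected design were lower than BM cells, with a log2 difference of -4.00 ± 0.16 (edgeR, adjusted p = 1.1e-09). Between TUMOR and NC the difference of -0.06 ± 0.15 did not pass the test (edgeR, adjusted p = 0.734).

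Mmp10 encodes stromelysin 2, which is close to stromelysin 1 in sequence and substrates. It followed the same order at lower levels. NC had 0.68, 0.67 and 1.88 FPKM, HOMING 4.92, 4.63 and 6.06, BM 11.28, 11.66 and 12.38, and TUMOR 1.46, 0.97 and 1.16 FPKM. BM and HOMING each stood above all NC and TUMOR libraries without overlap, while TUMOR lay within the NC range. BM exceeded HOMING by 1.21 ± 0.27 on the log2 scale (edgeR, adjusted p = 0.00193).

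HOMING exceeded NC in Mmp10 by 2.15 ± 0.31 (edgeR, adjusted p = 3.83e-05) and BM exceeded NC by 3.36 ± 0.31 (edgeR, adjusted p = 1.29e-06). NC replicate 3 was the high culture library. Without it these values were 2.84 and 4.04. TUMOR was below BM by a log2 difference of -3.34 ± 0.31 (edgeR, adjusted p = 9.59e-07), and TUMOR and NC differed by 0.02 ± 0.34 (edgeR, adjusted p = 0.963).

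Mmp13 encodes collagenase 3, which cuts fibrillar collagen and is made by osteoblasts, hypertrophic chondrocytes and activated fibroblasts. Unlike the stromelysins it did not differ detectably between the marrow groups, and it was lowest at the tumour site. NC libraries had 8.21, 9.43 and 13 FPKM and HOMING libraries 31.62, 31.55 and 46.91 FPKM. BM libraries had 33.18, 32.47 and 34.90 FPKM, and TUMOR libraries 1.63, 1.80 and 1.61 FPKM. HOMING and BM overlapped, and each of the other groups stood apart.

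In edgeR, Mmp13 rose in HOMING against NC by 1.73 ± 0.17 on the log2 scale (adjusted p = 1.56e-06) and in BM against NC by 1.63 ± 0.17 (adjusted p = 4.44e-06). BM against HOMING gave -0.10 ± 0.16 (edgeR, adjusted p = 0.621). TUMOR was below NC by -2.73 ± 0.21 (edgeR, adjusted p = 1.04e-07), the only call among the 7 members in that comparison. Against BM the TUMOR difference was -4.36 ± 0.21 (edgeR, adjusted p = 3.09e-09). Of 8 listed markers of osteoblasts and hypertrophic chondrocytes, Sox9 alone passed the filter. It was 6.783 FPKM in NC, 9.557 in BM and 18.44 in TUMOR and made up most of the summed level of the list. Alpl was 0.68 FPKM in NC, 0.1533 in BM and 0.34 in TUMOR. The others lay at or below 0.31 FPKM in every library. The list therefore does not measure these cells, and their part in Mmp13 was not tested.

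**Figure D2:**
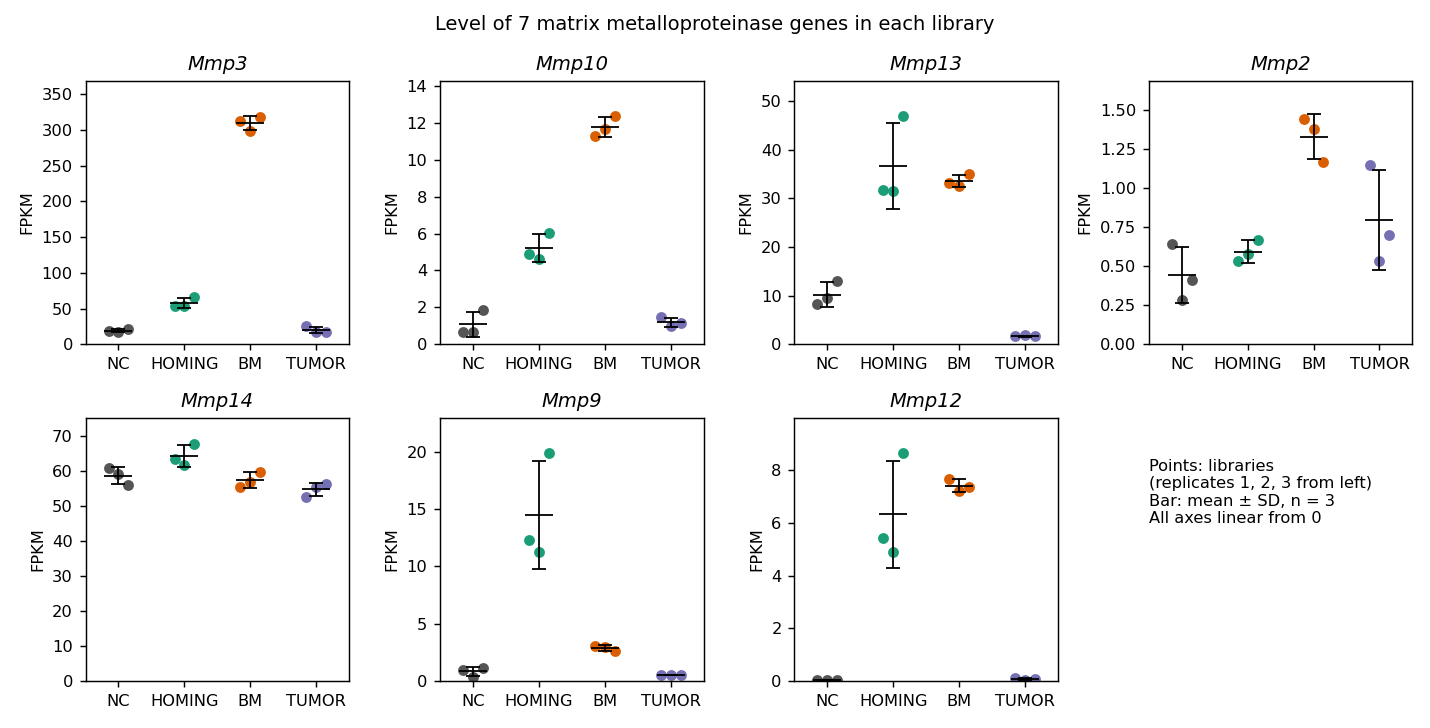
Level of each of the 7 members in every library (y axis, FPKM, linear from 0, a scale of its own in each panel), by group on the x axis. Points are libraries and bars are mean ± SD (n = 3); Mmp3 and Mmp10 are highest in BM, Mmp12 and Mmp13 overlap between HOMING and BM, Mmp9 is highest in HOMING, and Mmp14 is nearly level.

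Mmp2 encodes gelatinase A, which cuts denatured collagen and basement membrane collagen and is activated at the cell surface by MMP14 together with TIMP2. It was scarce in every group. NC had 0.64, 0.28 and 0.41 FPKM, HOMING 0.53, 0.58 and 0.67, BM 1.44, 1.38 and 1.17, and TUMOR 1.15, 0.53 and 0.70 FPKM. NC, HOMING and TUMOR overlapped in order, and BM stood just above the highest TUMOR library. BM exceeded HOMING by 1.13 ± 0.33 (edgeR, adjusted p = 0.0101) and NC by 1.45 ± 0.33 (edgeR, adjusted p = 0.00201). With limma on log2(FPKM + 1) these were 0.55 and 0.70, short of 2-fold, and the highest Mmp2 transcript alone fell below the expression filter.

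The reads behind Mmp2 were few, 167 expected counts summed over NC, 218 over HOMING, 474 over BM and 310 over TUMOR. In BM, 208.6 of them lay on a transcript that the authors' tables list without a RefSeq name and 265.4 on the annotated transcript. In TUMOR the split was 11.4 to 298.6. TUMOR against BM gave -0.61 ± 0.32, which did not pass the test although the libraries did not overlap (edgeR, adjusted p = 0.105). TUMOR against NC gave 0.85 ± 0.34, short of the 2-fold limit, and it passed without NC replicate 1 (1.31) and without TUMOR replicate 2 (1.08).

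Mmp14 encodes MT1-MMP, a membrane-anchored collagenase and the activator of proMMP2. It was abundant and nearly constant, at 61.06, 59.16 and 56.09 FPKM in NC, 63.45, 61.77 and 67.71 in HOMING, 55.50, 56.98 and 59.89 in BM and 52.61, 55.44 and 56.28 in TUMOR. HOMING was above every other library without overlap, and neighbouring groups below it overlapped. No Mmp14 difference reached 2-fold. The largest was TUMOR against HOMING, at -0.24 ± 0.05 on the log2 scale (edgeR, adjusted p = 0.000761). In every NC, HOMING and TUMOR library Mmp14 was the highest of the 7 members, and in BM Mmp3 exceeded it.

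Mmp9 and Mmp12 are the members that leukocytes also make. Mmp9, gelatinase B, had a different order from the stromelysins and was highest in marrow cells of mice without tumour cells. Its levels were 0.97, 0.38 and 1.15 FPKM in NC, 12.34, 11.26 and 19.91 in HOMING, 3.04, 2.97 and 2.57 in BM and 0.50, 0.54 and 0.55 in TUMOR. HOMING stood above BM and BM above NC without overlap, while TUMOR lay within the NC range.

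Mmp9 was lower in BM than in HOMING by a log2 difference of -2.31 ± 0.27 (edgeR, adjusted p = 1.05e-05), opposite in sign to Mmp3 and Mmp10. HOMING exceeded NC by 4.01 ± 0.30 (edgeR, adjusted p = 1.1e-07), and BM exceeded NC by 1.70 ± 0.30 (edgeR, adjusted p = 0.000332). TUMOR was below BM by -2.46 ± 0.33 (edgeR, adjusted p = 2.39e-05). Against NC the TUMOR value was -0.77 ± 0.36 and did not pass (edgeR, adjusted p = 0.0736). Without NC replicate 2, the lowest culture library, it was -1.12 and passed (edgeR, adjusted p = 0.00336).

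Mmp12, macrophage elastase, was close to undetected in culture and at the tumour site and present in both marrow groups. NC had 0.05, 0.04 and 0.03 FPKM, HOMING 5.43, 4.91 and 8.65, BM 7.68, 7.20 and 7.37, and TUMOR 0.10, 0.05 and 0.09 FPKM. HOMING and BM overlapped and did not differ by the test, at 0.26 ± 0.17 (edgeR, adjusted p = 0.207). Against NC the log2 difference was 7.20 ± 0.31 in HOMING and 7.46 ± 0.30 in BM (edgeR, adjusted p = 6.9e-10 and 3.49e-09). These folds rest on 19 expected counts over the NC libraries, against 2973 in HOMING, 3543 in BM and 37 in TUMOR.

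The Mmp12 reads also differed by transcript. The annotated transcript whose start is shown above as the downstream start carried 2953.2 counts in HOMING and 3513.4 in BM, but 8.0 in NC and 0.0 in TUMOR. All TUMOR counts lay on a transcript without a RefSeq name (29.0) and on another annotated one (8.0). TUMOR was below BM by a log2 difference of -6.56 ± 0.27 (edgeR, adjusted p = 1.37e-09). The size of this value ranged from -13.18 on the highest transcript, where the fitted value has 0.0 TUMOR counts behind it, to -2.96 with limma on log2(FPKM + 1). TUMOR and NC, both near the detection limit, gave 0.90 ± 0.58 (edgeR, adjusted p = 0.179).

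Leukocyte markers also differed between the groups, and in BM against HOMING they were lower together with Mmp9 but not with Mmp12. The summed level of 7 pan-leukocyte genes was 2.15 to 3.14 FPKM in NC (with Cd52 at 0), 223.91 to 366.07 in HOMING, 20.85 to 21.84 in BM and 1.77 to 2.51 in TUMOR. All 7 were called higher in HOMING and in BM than in NC, with 9.64% and 7.93% of all genes. All 7 were called lower in BM than in HOMING, with 6.68% of all genes. Ptprc, the CD45 gene, had 2 counts in NC, 5193 in HOMING, 212 in BM and 5 in TUMOR. It reached 1 FPKM in HOMING alone, so the filter fixed its direction. Apart from Itgb2, all stayed below 1 FPKM in NC and TUMOR, so the filter favoured their calls against NC. These counts are a description.

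Lists of single lineages followed. The sum of 12 neutrophil genes was 1.31 to 2.74 FPKM in NC, 1731.69 to 2536.66 in HOMING, 52.06 to 60.28 in BM and 0.91 to 2.55 in TUMOR. Elane, Mpo and Retnlg were at 0 in NC, and Mpo and Retnlg at 0 in TUMOR. The 12 macrophage genes summed to 8.84 to 14.07 FPKM in NC, 148.25 to 241.27 in HOMING, 46.53 to 47.74 in BM and 12.67 to 13.21 in TUMOR. C1qa, C1qb and C1qc were at 0 in NC and TUMOR. Erythroid genes summed to 1802.65 to 2947.68 FPKM in HOMING and 2.11 to 2.47 FPKM in BM.

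Of the tested genes of these lists, 11 of 11 neutrophil and 7 of 8 macrophage genes were called lower in BM than in HOMING, against 6.68% of all genes. Several of them, such as Elane, Mpo and Adgre1, reached 1 FPKM in HOMING alone, so the filter fixed their direction and nothing is read from these counts. The part of leukocytes in the levels of Mmp9 and Mmp12 was not tested, and in sorted pools fewer cells of a type and less RNA per cell cannot be told apart. HOMING replicate 3 had the highest leukocyte sum and was also the highest HOMING library for all 7 members. Without it, Mmp9 in BM against HOMING was -2.00 (edgeR, adjusted p = 5.08e-05) and Mmp3 2.58. Mmp12 was then 0.56, past the p threshold but under 2-fold (edgeR, adjusted p = 0.00116).

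The share of each enzyme per leukocyte marker was computed after the values above had been seen, and is given as a description. As a percent of the pan-leukocyte sum, Mmp8 was 10.6, 11.1 and 11.1 in HOMING and 12.7, 10.6 and 11.6 in BM, so the groups overlapped. Mmp8 is itself on the neutrophil list but not on this one. Mmp9 was 5.45, 5.03 and 5.44% in HOMING and 14.6, 13.6 and 11.9% in BM. Mmp12 was 2.4, 2.19 and 2.36% in HOMING and 36.8, 33 and 34.1% in BM. Per pan-leukocyte marker, Mmp8 overlapped between the marrow groups, while Mmp9 and, further, Mmp12 were higher in BM.

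Set against macrophage genes instead, Mmp9 was 7.95, 7.6 and 8.25% of the summed level in HOMING and 6.47, 6.38 and 5.38% in BM. Mmp12 was 3.5, 3.31 and 3.59% in HOMING and 16.4, 15.5 and 15.4% in BM. Mmp8 was 15.4, 16.7 and 16.8% in HOMING and 5.62, 4.99 and 5.24% in BM. By this sum Mmp8 and Mmp9 were lower in BM, and Mmp12 was higher. Most of the sum in BM was Cd14, at a mean of 36.29 of 47.08 FPKM, against 67.82 of 181.6 in HOMING. Cd14 was also present in NC (9.977 FPKM) and TUMOR (11.27 FPKM). Its difference in BM against HOMING was -0.87 ± 0.17, and it was the only tested gene of the list not called lower there. Shares without Cd14 were not computed, so these values do not give Mmp8 or Mmp9 per macrophage.

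Per neutrophil marker all 3 enzymes were higher in BM. Mmp8, which was left out of the sum for its own share, was 1.35, 1.45 and 1.63% in HOMING and 5.34, 4.66 and 4.33% in BM. Mmp9 was 0.685, 0.65 and 0.785% in HOMING and 5.84, 5.7 and 4.26% in BM. Mmp12 was 0.301, 0.284 and 0.341% in HOMING and 14.8, 13.8 and 12.2% in BM. The order of the marrow groups thus depended on the marker list for Mmp8 and Mmp9, and Mmp12 was higher in BM by each of the 3 lists. For Mmp8 and Mmp9, only the macrophage list placed BM below HOMING, and its sum in BM was mostly Cd14. The other sums also leaned on few genes. Of the neutrophil sum, S100a8 and S100a9 had 834.3 and 800.4 of 2023 FPKM in HOMING, and 21.31 and 19.75 of 54.82 in BM. Itgb2 had 50.63 of 272.1 FPKM of the pan-leukocyte sum in HOMING and 9.36 of 21.44 in BM. None of the 3 lists therefore gives an enzyme per leukocyte.

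**Figure D3:**
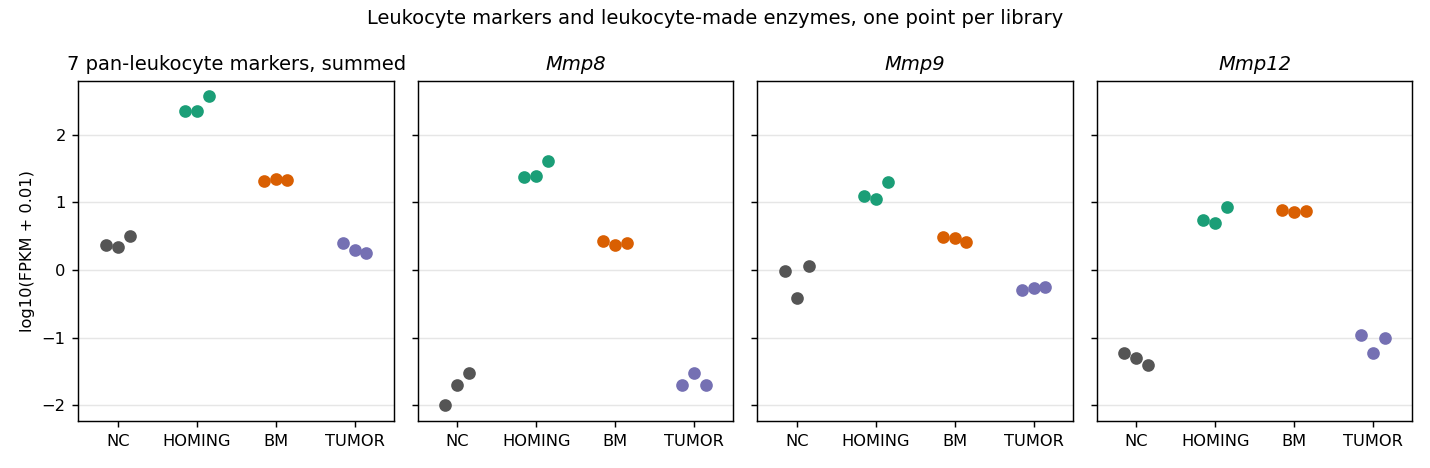
Summed level of 7 pan-leukocyte markers and levels of Mmp8, Mmp9 and Mmp12 in each library, by group on the x axis; the y axis is log10(FPKM + 0.01) and each point is a library. Mmp8 and Mmp9 are lower in BM than in HOMING, as the marker sum is, whereas Mmp12 overlaps between HOMING and BM.

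Stromal enzymes were then set against Mmp9 and Mmp12 within each library, as log2 ratios of FPKM + 0.1. An exact permutation F test over the 4 groups was run for each of 10 ratios, with p adjusted over the 10. Every ratio differed between groups, with adjusted exact p from 0.00032 to 0.0049. Pairs of groups were compared by an exact permutation test that with 3 against 3 libraries cannot go below 0.1.

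The mean log2 ratio of Mmp3 to Mmp9 was 4.47 in NC, 2.02 in HOMING, 6.71 in BM and 4.97 in TUMOR. Its 25.8-fold difference between BM and HOMING was the largest of the 10. The Mmp10 to Mmp9 ratio differed 10.8-fold in the same direction, from -1.42 in HOMING to 2.01 in BM on the log2 scale, and the Mmp2 to Mmp9 ratio 9.88-fold. For Mmp13 and Mmp14, which did not differ 2-fold themselves, the differences over Mmp9 were 4.45-fold and 4.28-fold. All 5 had the smallest possible exact p of 0.1, with no overlap between BM and HOMING.

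Over Mmp12 the ratios separated less. Mmp3 over Mmp12 was 4.47-fold higher in BM than in HOMING, and the Mmp2 and Mmp10 ratios were higher by 0.78 and 0.90 on the log2 scale, each with an exact p of 0.1. Mmp13 over Mmp12 was lower by a log2 difference of -0.37 (exact p = 0.1) and Mmp14 over Mmp12 gave -0.43 (exact p = 0.3). In NC and TUMOR the ratio of Mmp14 to Mmp12 was 8.72 and 8.26 on the log2 scale, against 3.37 in HOMING and 2.94 in BM. Mmp12 lay at or below the added 0.1 FPKM in every NC and TUMOR library, so the pseudocount sets much of the ratios over Mmp12 there.

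Counts of members called, at an adjusted p under 0.05 and at least 2-fold in edgeR, were read against the share of all 12314 tested genes. In BM against HOMING, 3 of 7 were higher (Mmp2, Mmp3, Mmp10) and 1 lower (Mmp9), while 3.71% of all genes were higher and 6.68% lower. In HOMING against NC, 5 of 7 were higher and 0 lower, with 9.64% and 4.69% of all genes. In BM against NC, 6 of 7 were higher and 0 lower, with 7.93% and 3.57% of all genes, and Mmp14 was the exception. Mmp2 had passed the filter through BM and 1 TUMOR library, Mmp12 through HOMING and BM, and Mmp9 through HOMING, BM and 1 NC library. The filter therefore favoured their calls in the groups where they were high, and these counts are a description.

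At the tumour site the picture turned. In TUMOR against NC, 0 of 7 were higher and 1 lower, with 9.75% and 6.65% of all genes, which is close to the background. In TUMOR against BM, 0 were higher and 5 lower, with 6.95% and 7.28% of all genes. In TUMOR against HOMING, 0 were higher and 5 lower, with 4.42% and 6.37%, and the same 5 members (Mmp3, Mmp9, Mmp10, Mmp12, Mmp13) were called in both. These comparisons share libraries, so their counts are not independent of each other. Mmp9 and Mmp12 were below 1 FPKM in every TUMOR library and passed the filter through other groups. The filter therefore favoured their lower calls in TUMOR against BM and HOMING, and these counts are a description.

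The median log2 difference of the 7 members was 0.26 in BM against HOMING, 1.73 in HOMING against NC, 1.70 in BM against NC, -0.06 in TUMOR against NC, -3.34 in TUMOR against BM and -2.13 in TUMOR against HOMING. The median of all tested genes lay within 0.02 of 0 in each. Epithelial markers stood beside the TUMOR values. Their sum over 5 genes was 69.5 to 114.97 FPKM in TUMOR, 1.92 to 4.23 in NC, 5.9 to 6.44 in HOMING and 6.31 to 6.93 in BM. It came from the keratins Krt8 (64.62 ± 25.3 FPKM) and Krt19 (21.59 ± 0.728), whereas Krt18 had 11 counts, Cdh1 17 and Epcam 2 over the TUMOR libraries. Their part in the TUMOR results was not tested.

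**Figure D4:**
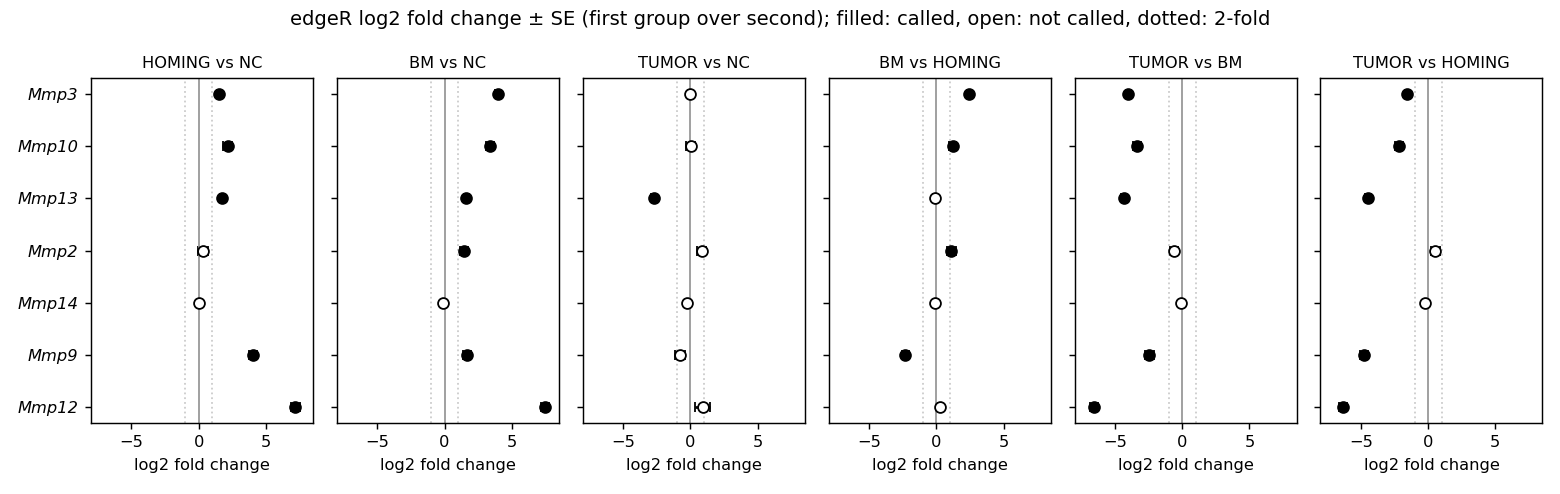
Log2 fold changes of the 7 members (y axis) in the 6 comparisons (panels), as edgeR estimates with SE bars on the x axis, with called members filled, others open and 2-fold dotted. Mmp9 lies on the other side of 0 from Mmp2, Mmp3 and Mmp10 in BM against HOMING, and Mmp14 stays near 0 in all panels.

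The make-up of the family's transcripts shifted with these levels. The summed FPKM of the 22 listed Mmp genes was 135.6 to 151.3 in NC, 225.37 to 289.53 in HOMING, 453.05 to 479.26 in BM and 112.44 to 115.29 in TUMOR. Mmp14 made up 37.1 to 43.9% of it in NC and 45.6 to 49.3% in TUMOR, but 23.4 to 27.5% in HOMING and 11.9 to 12.6% in BM. Mmp3 took 66 to 67.1% in BM, against 12.5 to 14.4% in NC, 22.9 to 23.5% in HOMING and 15.2 to 22.0% in TUMOR. Since the level of Mmp14 itself was nearly constant, its smaller share in BM goes with the larger total.

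In HOMING, enzymes that leukocytes can make took a visible share. Mmp8, neutrophil collagenase, made up 10.4 to 14% of the family there and 0.512 to 0.565% in BM, and Mmp9 5.0 to 6.88% and 0.536 to 0.656%. Mmp13 took 13.7 to 16.2% in HOMING, 7.1 to 7.28% in BM and 1.41 to 1.6% in TUMOR. Mmp11, stromelysin 3, was 20.7 to 21.2% of the family in NC and 18.5 to 20.6% in TUMOR, and 4.1 to 4.37% in BM.

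**Figure D5:**
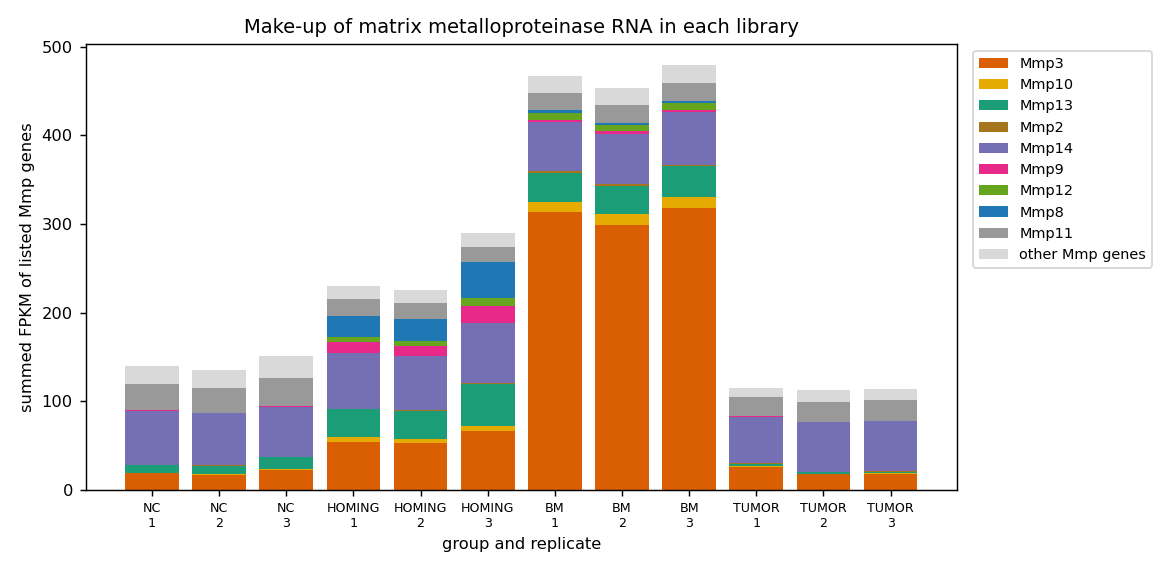
Summed FPKM of the listed Mmp genes (y axis, bars from 0) in every library (x axis, group and replicate), stacked by gene. Mmp3 fills 66 to 67.1% of each BM bar, Mmp14 is the largest single segment in NC, HOMING and TUMOR, and Mmp8 and Mmp9 are visible in HOMING.

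Of the 16 other Mmp genes on the list, 8 passed the filter. Mmp8 averaged 29.77 ± 9.4 FPKM in HOMING and 2.487 ± 0.16 FPKM in BM, with 3 counts over NC and 4 over TUMOR. It was called lower in BM than in HOMING, at -3.55 ± 0.19 on the log2 scale. Mmp25, a membrane-anchored enzyme of leukocytes, went the same way with 1179 counts in HOMING, 32 in BM, and 3 each in NC and TUMOR. Mmp25 reached 1 FPKM in HOMING alone, so the filter fixed the direction of its calls. Mmp8 reached 1 FPKM in HOMING and BM alone, so the filter favoured its calls against NC and TUMOR. Mmp28, epilysin, had 7.593 ± 1.04 FPKM in NC and 7.183 ± 0.224 in BM, against 1.963 ± 0.0252 in HOMING and 2.323 ± 0.15 in TUMOR. It was called higher in BM than in HOMING by 1.90 ± 0.10.

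In BM against HOMING, 1 of the 8 was thus called higher and 3 lower, Mmp24 being the other lower one (-2.19 ± 0.34). In HOMING against NC 2 were higher and 1 lower, and in BM against NC 2 higher and 1 lower. TUMOR had 0 higher and 1 lower against NC, 1 higher and 4 lower against BM, and 0 higher and 2 lower against HOMING. Beside these counts and those of the lists below stand the shares of all genes called. In BM against HOMING they were 3.71% higher and 6.68% lower. Against NC they were 9.64% and 4.69% in HOMING, 7.93% and 3.57% in BM, and 9.75% and 6.65% in TUMOR. TUMOR had 6.95% and 7.28% against BM, and 4.42% and 6.37% against HOMING. Differences between the lists and all genes were not tested. Mmp1b, which lies between Mmp12 and Mmp3, was below the filter with 5, 66, 222 and 39 counts over NC, HOMING, BM and TUMOR. In a fit without the filter it was higher in BM than in HOMING by 1.78 ± 0.35 (edgeR, adjusted p = 0.00077). Mmp1a and Mmp1b are close copies, so reads may have been split between them.

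No tested gene of the inhibitor list was called higher in any of the 6 comparisons. None of the 5 tested was called in BM against HOMING, where their median log2 difference was 0.12. Under 2-fold, Timp3 was higher there by 0.45 ± 0.11 (edgeR, adjusted p = 0.00422). Pcolce, which is on the list but is not a TIMP, was higher by 0.58 ± 0.09 (edgeR, adjusted p = 0.000125). Timp2 was lower by -0.47 ± 0.08 (edgeR, adjusted p = 0.00035). Timp3, a matrix-bound inhibitor, was 140.3 ± 21.3 FPKM in NC, 34.6 ± 1.74 in HOMING, 46.28 ± 0.607 in BM and 46.59 ± 6.87 in TUMOR. It fell against NC by -2.13 ± 0.12 in HOMING and -1.68 ± 0.11 in BM on the log2 scale. Timp1, a soluble inhibitor, was 316.1 ± 25.7 FPKM in NC and 146.5 ± 10.9 in TUMOR and fell there by -1.24 ± 0.07. Against NC, 0 rose and 1 fell in HOMING, 0 rose and 3 fell in BM, and 0 rose and 2 fell in TUMOR. TUMOR had no call against BM or HOMING.

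Timp2, which joins MMP14 and proMMP2 at the cell surface, was 334.1 ± 27.2 FPKM in NC, 240.5 ± 10.8 in HOMING, 169.7 ± 3.89 in BM and 241.5 ± 29.3 in TUMOR. It fell in BM against NC by -1.06 ± 0.08. Reck, a membrane-anchored inhibitor, was 2.083 FPKM in NC and 1.103 in BM and was also called lower.

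Among 14 tested activators and docking proteins, 0 were higher and 5 lower in BM against HOMING, with 3.71% and 6.68% of all genes. Elane and Ctsg, neutrophil proteases that activate proenzymes, were among the lower ones, and Elane is also on the neutrophil list. Elane, Ctsg and Itgb3, also called lower, reached 1 FPKM in HOMING alone. The filter therefore fixed their direction against HOMING, and nothing is read from those calls. Lcn2, which binds MMP9, was also lower, at 385.0 FPKM in NC, 1103.0 ± 275.0 in HOMING, 369.8 ± 12.4 in BM and 45.24 ± 2.55 in TUMOR. Plau, the urokinase gene, was 6.74 ± 3.21 FPKM in NC and 16.06 ± 1.04 in BM and rose there by 1.16 ± 0.23. The list had 4 higher and 0 lower in HOMING against NC and 4 higher and 1 lower in BM against NC. TUMOR had 1 and 1 against NC, 1 and 4 against BM, and 0 and 5 against HOMING.

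Matrix substrates moved in both directions. Of 16 tested, Col3a1 and Dcn were higher and 0 lower in BM against HOMING, with 3.71% and 6.68% of all genes. Decorin, a collagen-binding proteoglycan, was 96.1 FPKM in NC, 206.8 in HOMING, 604.7 ± 18.3 in BM and 65.73 in TUMOR, and its BM to HOMING difference was 1.58 ± 0.14. Fibronectin, a substrate of both stromelysins, was 572.8 ± 9.13 FPKM in NC and 153.1 ± 2.64 in HOMING, 238.0 ± 17.8 in BM and 171.7 ± 22.9 in TUMOR. Fn1 was called lower than NC in all 3. Against NC the list had 2 higher and 4 lower in HOMING, 3 and 3 in BM, and 2 and 2 in TUMOR. TUMOR had 0 higher and 2 lower against BM and 1 higher and 2 lower against HOMING.

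All 18 listed transcription factors of the AP-1, ETS, NF-kB and related families were tested. Ets2 and Egr1 were called higher in BM than in HOMING, with none lower, while 3.71% of all genes were higher and 6.68% lower. Junb, a Jun-type AP-1 subunit, was 102.8 ± 6.63 FPKM in NC, 142.4 ± 8.6 in HOMING, 253.2 ± 12.6 in BM and 92.66 ± 5.09 in TUMOR. It rose in BM against NC by 1.22 ± 0.07 and was below BM in TUMOR by -1.49 ± 0.07. In TUMOR against BM, 0 of 18 were higher and 7 lower, Ets2, Cebpb, Junb and Stat3 among them. Of all genes, 6.95% were higher and 7.28% lower there. Against NC, 1 rose and 2 fell in HOMING, 2 rose and 0 fell in BM, and 1 rose and 4 fell in TUMOR, and TUMOR against HOMING had 0 and 2.

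Cytokines and receptors known to induce these enzymes were divided between the marrow groups. Of 15 tested, 2 were higher and 6 lower in BM against HOMING, with 3.71% and 6.68% of all genes. Osm, one of the lower genes, reached 1 FPKM in HOMING alone, so the filter fixed its direction. Il1b, an inducer of stromelysins that leukocytes make, was 0.08 FPKM in NC, 87.36 ± 24.5 in HOMING, 11.9 ± 0.286 in BM and 0.03 in TUMOR, and so went with the leukocyte markers. Osmr, the oncostatin M receptor, was 43.82 ± 3.54 FPKM in NC, 27.75 ± 1.74 in HOMING, 69.9 ± 3.87 in BM and 8.657 ± 0.811 in TUMOR. It rose in BM against HOMING by 1.36 ± 0.07 and was lower in TUMOR than in BM by -3.06 ± 0.08.

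Il6 had 13.26 FPKM in NC, 32.42 ± 2.4 in BM and 1.81 ± 0.14 in TUMOR. The inducer list had 6 higher in HOMING and 7 in BM against NC, with 0 lower in either. TUMOR had 2 higher and 4 lower against NC, 0 and 8 against BM, and 1 and 7 against HOMING. Il1a, Il1b, Tnf, Osm and Hgf stayed below 1 FPKM in every NC and TUMOR library and passed the filter through the marrow groups. The filter therefore favoured their calls between the marrow groups and NC or TUMOR, and these counts are a description.

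The genes whose levels over the 12 libraries were most like each member were found by Pearson correlation of log2(FPKM + 1) among 9075 genes with at least 5 FPKM in a group. The libraries fall into 4 groups, so these values mainly describe likeness of the group means. Mmp3 was closest to Il13ra1 (r = 0.995), Col5a3 (0.992) and Junb (0.990), and Mmp10 to Sh3pxd2b (0.996), Atf6b (0.990) and Nab1 (0.987). Mmp13 was closest to the complement gene C3 (0.982), Ccl9 (0.974) and Hnrnpf (0.973).

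Mmp9 was closest to leukocyte genes, Itgb2 (r = 0.994), Camp (0.993) and Plek (0.992), of which the first belongs to the pan-leukocyte list and the second to the neutrophil list. Mmp12 was not, and had Birc3 (0.993), Ell2 (0.989) and Mvp (0.987) as its nearest genes. Birc3 was 2.757 FPKM in NC, 14.05 in HOMING, 14.58 in BM and 2.397 in TUMOR. The nearest genes of Mmp2 were Pacc1 (0.936), Thop1 (0.935) and Rab3gap1 (0.932), and those of Mmp14 were Map11 (0.944), Sh3bp2 (0.933) and Bin3 (0.929).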

How the data were processed

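RNA was sequenced from 12 libraries of sorted GFP-BMSCs, with Trizol extraction and TruSeq libraries per the labels. The authors used Bowtie 0.12.2 and genome build mm8, per the submitters' processing notes, and no source used here names the counting program. The deposited tables give, per transcript, expected counts and FPKM, the latter scaled by the authors to length and library. Both were summed per gene, and 19629 of 19679 Entrez numbers matched a symbol. Rounded sums were scaled by TMM and tested in edgeR 4.0.16 (R 4.3.3, quasi-likelihood, 4 groups, 12 libraries), after a filter of 1 FPKM in 3 libraries, with Benjamini-Hochberg adjustment over 12314 genes. Calls needed an adjusted p under 0.05 and a 2-fold change. Exact permutation tests were computed with numpy 2.4.6. Both scripts were tested on simulated data with known changes. Alternatives were DESeq2 1.42.0, limma 3.58.1 on log2(FPKM + 1) or log2(FPKM + 0.1), other scalings and filters, the highest transcript, a replicate block and leaving out each library. From each list the genes named were called in some comparison, smallest adjusted p first, up to 4 per comparison, and a few others were named after their values were seen. The members and lists were chosen with earlier results of these data known. The precision of scarce genes is limited by their counts.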

Additional observations from a re-analysis of the deposited data

How the results depend on the processing

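Of the log2 values of the 7 members under the alternatives, 856 kept their direction and side of the threshold, 15 changed sign, 3 passed it newly and 2 no longer passed. The 15 were all of values that were not called in the first place. Mmp3 in TUMOR against NC became 0.06 with library totals, 0.05 with limma at either pseudocount, and -0.27 to 0.06 when each library was left out. Mmp14 in HOMING against NC became -0.00 with no filter and -0.02 to 0.06 without each library. Mmp10 in TUMOR against NC became -0.03 with no filter and -0.23 to 0.71 without each library. Mmp12 in TUMOR against NC was -4.51 on its highest transcript, and Mmp13 in BM against HOMING ranged from -0.20 to 0.13 without each library. Mmp2 was not called with limma on log2(FPKM + 1), at 0.55 in BM against HOMING and 0.70 in BM against NC, and its highest transcript fell below the filter. Mmp12 varied most in size, from 2.78 to 8.42 in HOMING against NC, 3.02 to 8.67 in BM against NC, -13.18 to -2.96 in TUMOR against BM and -12.93 to -2.73 in TUMOR against HOMING. All 10 ratios kept their calls under every alternative run.

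Members called in TUMOR against NC numbered 1 to 2 when each library was left out and 3 with no minimum fold change. Over all genes, in the order BM against HOMING, HOMING against NC, BM against NC, TUMOR against NC, TUMOR against BM and TUMOR against HOMING, 1280, 1765, 1416, 2019, 1752 and 1329 genes were called. With no filter these were 2581, 3302, 2537, 3420, 3162 and 2702, and with no minimum fold change 7158, 8617, 8198, 9068, 8576 and 6776. Limma on log2(FPKM + 1) called 626 in BM against NC, 1301 in TUMOR against NC and 930 in TUMOR against BM. Leaving out each library gave 938 to 1273, 1397 to 1790, 1192 to 1451, 1704 to 2054, 1475 to 1739 and 966 to 1327. Without a HOMING library, genes that reached 1 FPKM in HOMING alone left the filter (11953 to 11956 genes tested). The share of calls that were higher then moved from 35.7% to 47.4 to 50.7% in BM against HOMING and from 40.9% to 54 to 56.8% in TUMOR against HOMING, so the share of all genes called lower in these comparisons depends on the filter. Scaling by library totals moved the median of all genes to 0.12 in HOMING against NC, 0.10 in BM against NC and 0.13 in TUMOR against NC, and raised the share of TUMOR against NC calls that were higher from 59.4 to 69.7%.

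With the replicate number as a block, members called were 4, 5, 6, 1, 5 and 5 and genes called 1285, 1770, 1421, 2018, 1750 and 1325 in the same order, and no member's call changed. The numbers did not pair the libraries: deviations of same-numbered libraries correlated at -0.12 to 0.224 over 18 pairs, and 14 of 36 library comparisons were highest with their own number.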
